A study of Mus musculus with 16 samples.

Results

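Cells made red by tdTomato, used here as a reporter of parvalbumin, were isolated by fluorescence-activated cell sorting from the motor and somatosensory cortex of 2 mouse lines, and the PVCre line was compared with the PV-tdTomato line. The 8 cortical arrays, 4 a line and chosen by their titles, are part of a study of 16 arrays; the other 8 hold cells of the same lines from dorsal striatum. PVCre mice had the genotype PVCre/+; tdTomato/+, and PV-tdTomato mice had the genotype PV-tdTomato/+ and no Cre. Both lines were C57BL/6J, labelled male and 30 days old, carried each allele in 1 copy, and received no treatment. In the PVCre line the Cre recombinase was under parvalbumin control, so a cell's label depends on that driver. Each array measured the RNA of 2000 cells, pooled from 2 to 4 mice, after amplification of 5 ng, and the labels do not say whether pools shared mice. Values are RMA levels on a log2 scale, so a difference of 1 is a doubling. Of 30743 genes with a transcript cluster of their own, 20495 passed a filter on the mean level over all arrays and were tested.

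Cortical parvalbumin interneurons are fast-spiking GABAergic cells that arise in the medial ganglionic eminence and inhibit pyramidal cells at the soma and axon initial segment. Other cortical interneurons express somatostatin (Sst), or come from the caudal ganglionic eminence and express Vip, Htr3a, Lamp5, Ndnf or calretinin (Calb2). A Cre-dependent reporter stays on in every descendant of a recombined cell, whereas a reporter driven directly by a promoter follows the present activity of that promoter. Dissociation of brain tissue is known to induce immediate early genes, and microglia are known to answer it with cytokine and chemokine transcripts.

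The arrays differed by line before any gene was considered. The separation of positive from negative control probe sets, as a difference of their medians, was 3.50 ± 0.35 in PVCre cortex and 4.46 ± 0.26 in PV-tdTomato cortex (SD, n = 4 each), and the ranges of 3.08 to 3.93 and 4.30 to 4.85 did not overlap. The upper quartile of all transcript clusters was 7.33 to 7.58 in PVCre cortex and 7.82 to 7.87 in PV-tdTomato cortex. The first principal component of the 8 arrays held 67.1% of the variance and separated the lines. Antigenomic probe sets, which match no mouse sequence and measure background, had mean levels up to 6.10. The labels name no batch, and effects of line and of any batch aligned with it cannot be told apart.

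The RNA of parvalbumin, whose driver labels the cells, did not separate the lines; cells were sorted on tdTomato, whose level was not analysed here. Pvalb, a calcium-binding protein, was at 10.56, 7.93, 12.48 and 6.69 in PVCre replicates 1 to 4 and at 12.17, 11.13, 6.96 and 7.19 in PV-tdTomato replicates 1 to 4. The groups overlapped, with a difference of 0.05 ± 1.43 (SE; limma adjusted p = 0.98), and PVCre replicates 2 and 4 and PV-tdTomato replicates 3 and 4 were the low arrays of their lines. Pvalb RNA was thus uneven among the pools of both lines. Results were also computed without these 4 arrays, and without PVCre replicates 2 and 4, which were the lowest in the GABA synthesis gene Gad1. In sorted pools like these, fewer cells of a type and less RNA per cell cannot be told apart.

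Most genes tested differed between the lines. In limma with Benjamini-Hochberg adjustment over all genes and a threshold of 0.05, 3934 genes (19.2%) were higher in PVCre cortex and 7041 (34.4%) were lower, or 53.5% together. The direction of that imbalance depended on the scaling: after quantile normalization 26.0% were higher and 23.9% lower, the share of calls that were higher was 52.1% instead of 35.8%, and the median difference of all genes was 0.02 instead of -0.22. A minimum difference of 1 left 272 genes higher (1.33%) and 693 lower (3.38%). The arrays of the lines did not overlap in 47.1% of the genes, so the counts below are read against these shares.

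**Figure D1:**
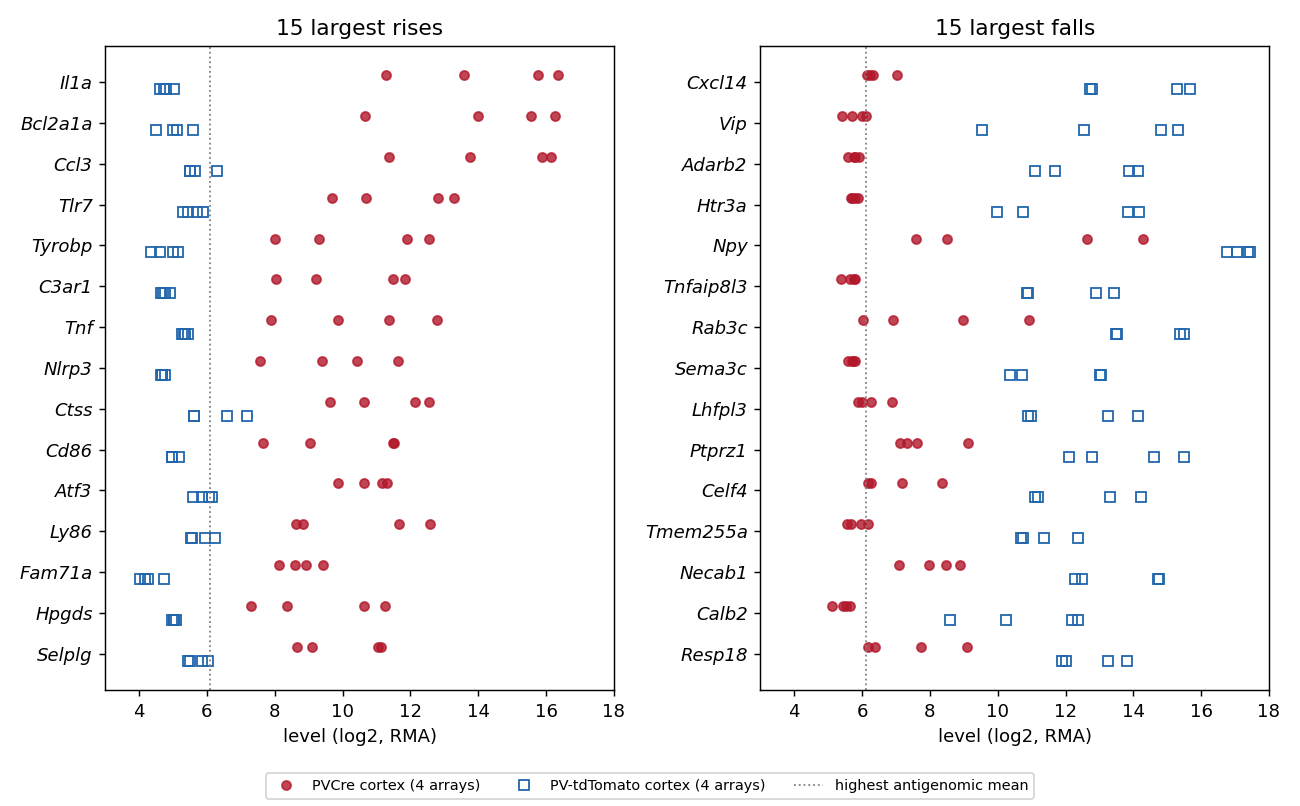
Levels on the log2 scale of the genes with the 15 largest rises (left) and the 15 largest falls (right), chosen among called genes without overlap; each filled circle is a PVCre cortical array, each open square below it a PV-tdTomato cortical array, and the dotted line is the highest antigenomic mean, 6.10. Il1a lay at 11.28 or above on every PVCre array and at 5.03 or below on every PV-tdTomato array, and Cxcl14 lay at 7.03 or below on every PVCre array and at 12.71 or above on every PV-tdTomato array.

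Genes of interneurons other than parvalbumin cells had the lowest median difference of the lists. Of 21 tested markers of other GABAergic classes, 17 were lower in PVCre cortex and none was higher, with a median difference of -3.48; 12 were lower by more than 1, and the arrays of 16 did not overlap. Their mean level was 7.18, 6.71, 7.09 and 6.75 on the PVCre arrays and 11.62, 11.30, 9.30 and 9.74 on the PV-tdTomato arrays. The count was 17 without the 4 low-Pvalb arrays, against 24.1% of all genes, and 16 without PVCre replicates 2 and 4, against 26.0%.

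Vip, the peptide that names a class of interneurons targeting other interneurons, was at 5.99, 5.4, 5.71 and 6.12 in PVCre cortex and at 14.82, 15.31, 9.55 and 12.54 in PV-tdTomato cortex. It was within background on every PVCre array and high on every PV-tdTomato array, with replicate 3 the lowest of these. Where a gene did not exceed the highest antigenomic level of any array of a line, that level stands in for it and the fold is a lower bound. Vip was thus at least 110-fold lower in PVCre cortex (adjusted p = 1.8e-05). Htr3a, an ionotropic serotonin receptor of caudal interneurons, lay at 5.68 to 5.89 in PVCre cortex and at 9.97 to 14.17 in PV-tdTomato cortex, at least 60.1-fold lower (adjusted p = 1.6e-05). Adarb2, an RNA-editing family member that marks caudal interneurons, lay at 5.59 to 5.90 in PVCre cortex and at 11.09 to 14.13 in PV-tdTomato cortex, at least 86.3-fold lower (adjusted p = 5e-07). Calretinin (Calb2) was at 5.12 to 5.65 in PVCre cortex and at 8.58 to 12.38 in PV-tdTomato cortex, at least 23.8-fold lower (adjusted p = 1e-05). All of these caudal markers were thus at background in the PVCre sort and expressed in the PV-tdTomato sort.

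Cxcl14, a chemokine that caudal interneurons express, had the largest measured difference among the falls, where the size for genes at background in PVCre cortex, such as Vip, is only a bound. Its levels were 6.14, 6.33, 6.24 and 7.03 in PVCre cortex and 15.66, 15.29, 12.77 and 12.71 in PV-tdTomato cortex, a difference of -7.67 ± 0.56 (SE; adjusted p = 2.7e-07). Lamp5, a membrane protein of neurogliaform cells, was at 5.61 to 6.28 in PVCre cortex and at 8.74 to 9.68 in PV-tdTomato cortex (-3.37 ± 0.24; adjusted p = 2.3e-07). Ndnf, another neurogliaform marker, was at 5.72 to 6.35 in PVCre cortex and at 8.52 to 10.12 in PV-tdTomato cortex (-3.48 ± 0.27; adjusted p = 4.2e-07). The complexin gene Cplx3 was at least 4.18-fold lower in PVCre cortex (adjusted p = 9e-07). For these neurogliaform genes the replicates within a line lay close together, so the difference was many times the spread.

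Npy and Sst, peptides of interneurons, behaved less evenly. Npy was at 12.63, 8.50, 14.28 and 7.59 in PVCre cortex and at 17.37, 16.76, 17.43 and 17.06 in PV-tdTomato cortex, a difference of -6.41 ± 1.30 (adjusted p = 0.00089). PV-tdTomato arrays were uniformly near the top of the scale, while PVCre replicates 1 and 3 were far above replicates 2 and 4. Sst was at 8.38, 7.20, 8.17 and 6.66 in PVCre cortex and at 13.99, 13.08, 9.57 and 8.72 in PV-tdTomato cortex (-3.74 ± 1.11; adjusted p = 0.011). The call for Npy was lost without the 4 low-Pvalb arrays (-3.61; adjusted p = 0.0546), and that for Sst without PVCre replicates 2 and 4 (-3.06; adjusted p = 0.107).

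The GABA machinery was lower with the same split of replicates. All 6 tested genes of GABA synthesis, packaging and uptake were lower in PVCre cortex, 3 of them by more than 1. Gad1 was at 11.63, 8.88, 13.66 and 7.40 in PVCre cortex and at 14.04, 14.00, 12.20 and 12.43 in PV-tdTomato cortex. PVCre replicate 3 reached the PV-tdTomato range and replicates 2 and 4 fell far below it, and the difference of -2.78 ± 1.08 (adjusted p = 0.043) lost its call after quantile normalization (-2.40; adjusted p = 0.0541) and without PVCre replicates 2 and 4 (-0.52; adjusted p = 0.656). Gad2, which encodes the other GABA-synthesizing enzyme, was at 9.15, 6.79, 10.94 and 6.56 in PVCre cortex and at 13.85, 13.38, 12.32 and 12.06 in PV-tdTomato cortex (-4.54 ± 0.82; adjusted p = 0.00039). Slc32a1, the vesicular GABA transporter, was at 8.81, 6.88, 10.45 and 5.12 in PVCre cortex and at 13.79, 13.52, 11.85 and 11.39 in PV-tdTomato cortex (-4.82 ± 0.94; adjusted p = 0.00066). Gad2 and Slc32a1 did not overlap between the lines. Abat, which degrades GABA, and Slc6a11, a GABA transporter of astrocytes, were lower by 2.68 and 2.98 in PVCre cortex (adjusted p = 0.00063 and 8.7e-06).

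**Figure D2:**
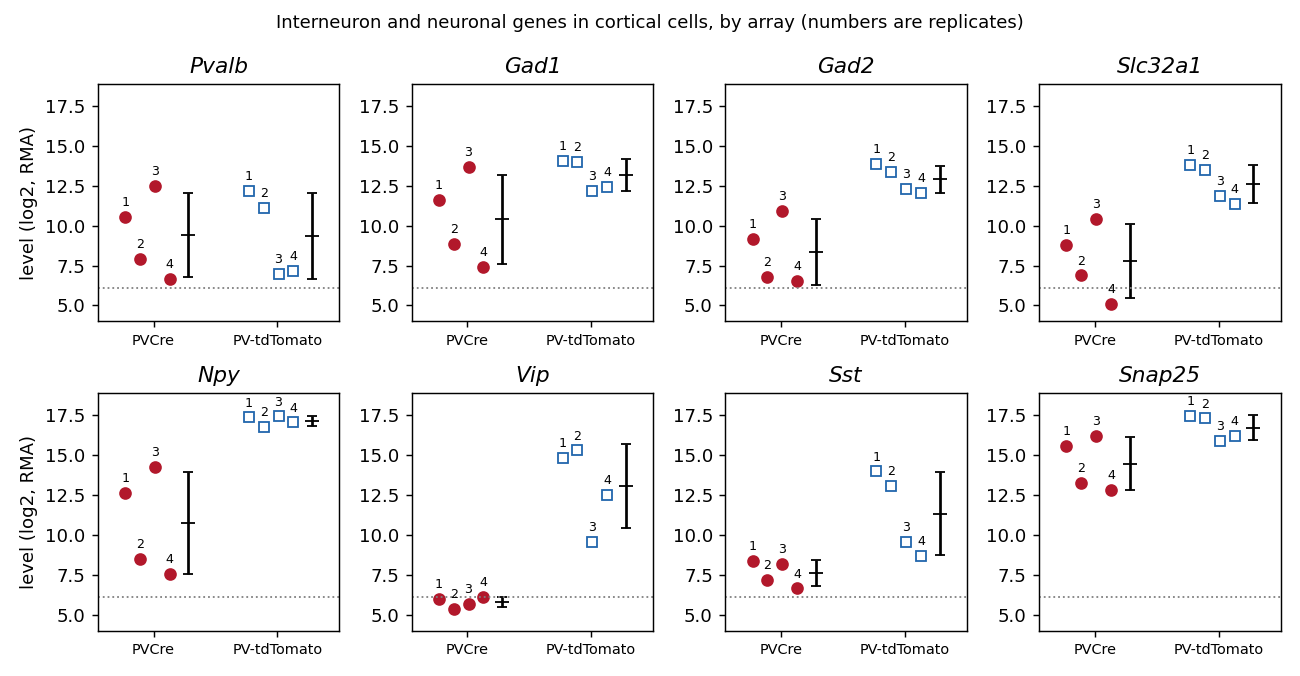
Levels on the log2 scale of 8 interneuron and neuronal genes on each cortical array; filled circles are PVCre and open squares PV-tdTomato arrays with their replicate numbers, the bar is the mean with SD (n = 4), and the dotted line is the highest antigenomic mean. Pvalb overlaps fully between the lines, Vip is at or under the dotted line or next to it on all 4 PVCre arrays, and within the PVCre line replicates 2 and 4 are the lowest in Pvalb, Gad1, Gad2, Slc32a1, Npy and Snap25.

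Fewer of the genes that define parvalbumin cells were called. Of 22 tested parvalbumin identity genes, 5 were lower, none was higher, and none of them was lower by more than 1 in the stricter test. The share of 22.7% lower is below the 34.4% of all genes, but the median difference of -0.77 is below the -0.22 of all genes. The mean level of the list spread widely within each line (SD 1.25 in PVCre and 1.01 in PV-tdTomato cortex). Few calls therefore do not show that these genes were unchanged. Sox6, a transcription factor of medial interneurons, was at 8.61, 7.21, 9.91 and 8.29 in PVCre cortex and at 9.82, 9.82, 11.58 and 12.26 in PV-tdTomato cortex (-2.37 ± 0.64; adjusted p = 0.0062). Erbb4, the neuregulin receptor, was at 12.46 to 14.11 in PVCre cortex and at 13.61 to 15.10 in PV-tdTomato cortex (-1.40 ± 0.49; adjusted p = 0.027), and the synaptic ligand Nxph1 differed by -1.71 ± 0.64 (adjusted p = 0.035). Lhx6, the factor that specifies medial interneurons, was at 6.95, 6.32, 7.81 and 6.23 in PVCre cortex and at 7.94, 7.40, 6.57 and 6.71 in PV-tdTomato cortex and was not called (-0.33 ± 0.48; adjusted p = 0.58), but turned to 1.59 with the control separation as a covariate (adjusted p = 0.0457). The number of lower parvalbumin identity genes was 2 without PVCre replicate 2, PVCre replicate 4 or PV-tdTomato replicate 1. It was 3 without PVCre replicate 1 or PV-tdTomato replicate 2 and 8 without PVCre replicate 3. Without both PVCre replicates 2 and 4 it was 1, against 26.0% of all genes.

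Among 21 interneuron transcription factors, 10 were lower and 1, Nkx2-1, was higher. Nr2f2, a nuclear receptor of caudal interneurons, was at 5.22 to 5.35 in PVCre cortex and at 11.17, 11.38, 8.0 and 8.49 in PV-tdTomato cortex, at least 11.2-fold lower (adjusted p = 4.7e-05). Nr2e1 was at least 8.54-fold lower (adjusted p = 5.5e-06), and Npas3 differed by -3.11 ± 0.43 (adjusted p = 4.5e-05). Nkx2-1, which specifies the medial ganglionic eminence, rose only from background, by at least 1.20-fold (adjusted p = 1.8e-05).

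Genes shared by all neurons were lower in PVCre cortex, again with replicates 2 and 4 lowest. Of 21 pan-neuronal genes, 13 were lower and 1 was higher, with a median difference of -2.11. Snap25, a SNARE protein of vesicle fusion, was at 15.61, 13.28, 16.19 and 12.82 in PVCre cortex and at 17.46, 17.31, 15.90 and 16.21 in PV-tdTomato cortex (-2.24 ± 0.71; adjusted p = 0.016). Map2, a microtubule protein of dendrites, was at 9.57, 8.59, 9.99 and 9.48 in PVCre cortex and at 12.66, 12.78, 11.92 and 12.27 in PV-tdTomato cortex (-3.00 ± 0.30; adjusted p = 2.9e-06). Map2 separated the lines without overlap, whereas Snap25 overlapped through PVCre replicate 3. The RNA-binding protein Celf4 was at 7.19, 6.25, 8.35 and 6.16 in PVCre cortex and at 14.23, 13.31, 11.18 and 11.11 in PV-tdTomato cortex (-5.47 ± 0.77; adjusted p = 5.2e-05). Without PVCre replicates 2 and 4 only 3 pan-neuronal genes were called lower, against 26.0% of all genes, and Snap25 differed by -0.81 (adjusted p = 0.318).

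Excitability and release genes were lower too. Lower in PVCre cortex were 26 of 42 potassium channel genes, 21 of 26 sodium and calcium channel genes, 18 of 20 glutamate receptor genes, 7 of 9 GABA-A receptor subunits and 32 of 41 genes of synaptic vesicle release; in these lists 1 gene in all, of the sodium and calcium channels, was higher. By more than 1, the counts were 6, 9, 5, 2 and 8. Grin3a, a modulatory NMDA receptor subunit, was at 5.76 to 5.99 in PVCre cortex and at 9.72 to 10.63 in PV-tdTomato cortex, at least 16.1-fold lower (adjusted p = 1.2e-07). Grid1, a delta-type glutamate receptor, was at 6.55 to 7.0 in PVCre cortex and at 9.03 to 9.52 in PV-tdTomato cortex (-2.56 ± 0.18; adjusted p = 1.9e-07). For both receptors the gap between the lines was wider than the range within either line.

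Kcnc4, a Kv3 channel, was at 6.31, 5.69, 6.25 and 5.51 in PVCre cortex and at 10.67, 9.70, 9.10 and 8.95 in PV-tdTomato cortex (-3.66 ± 0.37; adjusted p = 3.2e-06). The R-type calcium channel Cacna1e differed by -2.57 ± 0.20 (adjusted p = 3.8e-07) and the sodium leak channel Nalcn by -2.57 ± 0.26 (adjusted p = 3.6e-06). Sv2c, a synaptic vesicle glycoprotein, was at least 8.84-fold lower in PVCre cortex (adjusted p = 1.3e-07), and the complexin Cplx2, a regulator of fusion, differed by -4.64 ± 0.65 (adjusted p = 4.9e-05). Rab3c, a small GTPase of synaptic vesicles, was at 8.98, 6.91, 10.91 and 6.02 in PVCre cortex and at 15.39, 15.49, 13.51 and 13.50 in PV-tdTomato cortex (-6.27 ± 0.93; adjusted p = 8.2e-05). Without PVCre replicates 2 and 4 the counts of lower genes were 17 potassium channels, 14 sodium and calcium channels, 11 glutamate receptors, 4 GABA-A subunits and 18 release genes. The share of all genes that were lower in that fit was 26.0%. The count of GABA-A subunits was also 4 without any 1 of PVCre replicates 2 and 4 and PV-tdTomato replicates 1 and 2.

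Markers of projection neurons were also lower in part, at lower levels. Of 16 pyramidal markers 11 were lower and 1 was higher, with a median difference of -0.72, and none was lower by more than 1 in the stricter test. After quantile normalization 7 were lower, against 23.9% of all genes. Only 3 were lower without PVCre replicates 2 and 4, against 26.0% of all genes. Slc17a7, the vesicular glutamate transporter of cortical pyramidal cells, was at 7.18, 6.55, 5.87 and 6.30 in PVCre cortex and at 8.22, 7.29, 8.32 and 7.46 in PV-tdTomato cortex (-1.35 ± 0.31; adjusted p = 0.002). The levels of this gene were low in both lines but did not overlap. Of 12 markers of striatal projection neurons, 6 were lower, among them the phosphodiesterase Pde10a (-1.47 ± 0.30; adjusted p = 0.0011).

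Perineuronal net and matrix genes, which include the sheath of fast-spiking cells, were lower in 12 of 19 and higher in 2. Hapln1, a link protein of the net, was at 6.06, 6.4, 8.15 and 6.05 in PVCre cortex and at 10.48, 10.19, 10.34 and 10.27 in PV-tdTomato cortex (-3.65 ± 0.65; adjusted p = 0.00033). Ncan, the proteoglycan neurocan, was at 7.08 to 7.44 in PVCre cortex and at 9.64 to 10.52 in PV-tdTomato cortex (-2.78 ± 0.30; adjusted p = 4.9e-06). Adamts1, a protease that cleaves such proteoglycans, was at 9.15, 8.38, 8.25 and 9.53 in PVCre cortex and at 5.80, 6.16, 6.99 and 7.32 in PV-tdTomato cortex (2.26 ± 0.45; adjusted p = 0.00076). Members of the same kind did not move one way: the protease Adamts4 was lower and Adamts5, Adamts8 and Adamts15 were not called, and the link protein Hapln2 was higher. These 5 were named after their values were seen. Without the 4 low-Pvalb arrays 3 net and matrix genes were called lower, against 24.1% of all genes. Among 22 neurotrophic factors and receptors 12 were lower and 1 was higher, with Fgfr1 at 6.87 to 7.04 in PVCre cortex and at 9.11 to 9.69 in PV-tdTomato cortex (-2.42 ± 0.13; adjusted p = 4.1e-08) and Ntrk2, the BDNF receptor, lower by 3.00 (adjusted p = 0.00015).

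Markers of glial progenitors fell with the interneuron genes. Of 12 oligodendrocyte precursor markers 8 were lower in PVCre cortex, with a median difference of -2.34, and none was higher. Their mean level was 8.20, 8.37, 7.84 and 8.54 on PVCre arrays and 9.57, 9.75, 11.92 and 12.27 on PV-tdTomato arrays. Lhfpl3, a membrane protein of precursors, was at 6.26, 6.00, 5.88 and 6.87 in PVCre cortex and at 10.88, 10.99, 13.26 and 14.15 in PV-tdTomato cortex (-6.07 ± 0.85; adjusted p = 4.9e-05). Ptprz1, a receptor phosphatase, was at 7.62, 7.33, 7.13 and 9.13 in PVCre cortex and at 12.09, 12.77, 14.62 and 15.48 in PV-tdTomato cortex (-5.94 ± 0.89; adjusted p = 8.6e-05). PV-tdTomato replicates 3 and 4, which were low in Pvalb, were the highest in both genes, and all 4 PV-tdTomato arrays exceeded every PVCre array. Without the 4 low-Pvalb arrays 2 precursor genes were called lower, against 24.1% of all genes. Bmp4, a ligand that precursors make, then missed the threshold (-2.81, adjusted p = 0.0731).

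Of 14 astrocyte markers 6 were lower (42.9%, against 34.4% of all genes), none was higher and 8 were not called. After quantile normalization 4 were lower, against 23.9% of all genes, and without the 4 low-Pvalb arrays 3 were, against 24.1%. The counts were thus close to the shares of all genes. The median difference of -1.02 was below the -0.22 of all genes, and after quantile normalization it was -0.80 against 0.02. The mean level of the list was 7.15 to 7.85 on PVCre arrays and 7.90 to 9.42 on PV-tdTomato arrays. The counts therefore do not show that the list was unchanged. Atp1b2, a sodium pump subunit of astrocytes, was at 8.46, 6.95, 8.17 and 8.27 in PVCre cortex and at 11.92, 11.20, 11.30 and 11.47 in PV-tdTomato cortex (-3.51 ± 0.30; adjusted p = 8.5e-07). Aldoc, a glycolytic enzyme of astrocytes, differed by -3.10 ± 0.29 (adjusted p = 1.9e-06), while the water channel Aqp4 was at 5.89 to 6.23 in PVCre cortex and at 5.97 to 6.66 in PV-tdTomato cortex, next to background in both.

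Genes of mature oligodendrocytes went the other way. Of 17 myelin genes 10 were higher in PVCre cortex and none was lower, with a median difference of 1.37. There were 13 higher without the 4 low-Pvalb arrays, against 13.8% of all genes. After quantile normalization 4 were higher, against 26.0% of all genes, and without PVCre replicates 2 and 4 there were 4, against 14.2%. None was higher with the control separation as a covariate, and none by more than 1 in the stricter test. Cnp, a myelin enzyme, was at 10.75, 11.19, 10.66 and 11.03 in PVCre cortex and at 8.14, 8.29, 9.53 and 9.23 in PV-tdTomato cortex (2.11 ± 0.34; adjusted p = 0.00016). Cldn11, the tight junction protein of myelin, was at 17.94 to 18.44 in PVCre cortex and at 16.15, 16.18, 17.50 and 17.25 in PV-tdTomato cortex (1.37 ± 0.36; adjusted p = 0.0054). Mbp, myelin basic protein, was at 10.93 to 11.92 in PVCre cortex and at 10.81 to 12.85 in PV-tdTomato cortex and did not pass (-0.49 ± 0.50; adjusted p = 0.42). The mean level of the myelin list was 13.97 to 14.30 on the PVCre arrays and 11.91, 12.01, 14.13 and 13.70 on the PV-tdTomato arrays, so PV-tdTomato replicates 1 and 2 were the low arrays. Without either of these 5 myelin genes were higher, and without PVCre replicate 1 or 4 there were 6. Myelin genes were far above background in every sort of either line, and their part in the other differences was not tested.

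**Figure D3:**
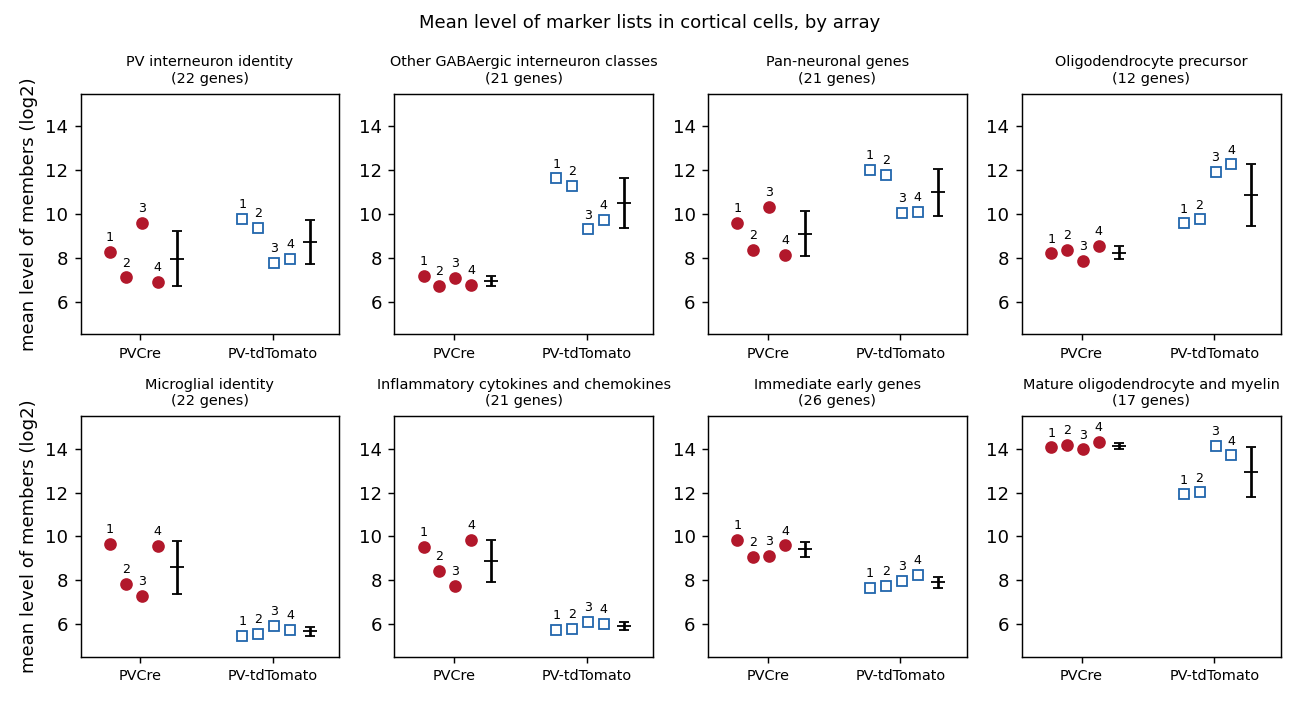
Mean level on the log2 scale of the tested members of 8 gene lists on each cortical array; filled circles are PVCre and open squares PV-tdTomato arrays with replicate numbers, and the bar is the mean with SD (n = 4). The microglial, cytokine and immediate early lists are higher on every PVCre array than on any PV-tdTomato array, the lists of other interneuron classes and of precursors are lower, and the parvalbumin, pan-neuronal and myelin lists overlap.

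The largest rises were in microglial and inflammatory genes. Of 22 tested microglial identity genes 21 were higher in PVCre cortex, against 19.2% of all genes; the median difference was 2.69, and 16 were higher by more than 1, against 1.33% of all genes. Without any filter on the level, 22 of the 23 microglial genes with a cluster were higher, against 24.1% of all 30743 genes (26.9% were lower). The mean level of the list was 9.64, 7.84, 7.29 and 9.56 on PVCre arrays and 5.47, 5.55, 5.90 and 5.73 on PV-tdTomato arrays. The PV-tdTomato arrays were thus all below the highest antigenomic mean, and every PVCre array was above it.

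Csf1r, the receptor on which microglia depend for survival, was at 10.10, 8.20, 7.24 and 10.33 in PVCre cortex and at 4.82, 4.94, 5.4 and 5.06 in PV-tdTomato cortex, at least 6.01-fold higher (adjusted p = 3.3e-05). Tyrobp, the signalling adaptor of TREM2, was at 12.56, 9.29, 8.01 and 11.89 in PVCre cortex and at 4.34, 4.62, 5.16 and 5.01 in PV-tdTomato cortex, at least 16.7-fold higher (adjusted p = 7.3e-05). Ctss, a lysosomal cysteine protease of microglia, was at 12.54, 10.64, 9.64 and 12.15 in PVCre cortex and at 5.63, 5.63, 7.18 and 6.58 in PV-tdTomato cortex (4.99 ± 0.60; adjusted p = 1.5e-05). PVCre replicates 1 and 4 were the highest and replicate 3, the array with the most Pvalb and Gad1, was the lowest in all 3 genes. Aif1, C1qc and Tmem119, further microglial genes, were at least 2.41-fold, 2.72-fold and 2.36-fold higher (adjusted p = 1.1e-05, 8.9e-06 and 6.7e-07), and Sall1, a transcription factor of microglia, was the tested member that was not called.

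Of 21 tested cytokines, chemokines and their regulators 17 were higher in PVCre cortex and none was lower, with 13 higher by more than 1. Il1a, which encodes interleukin-1 alpha, was at 15.77, 13.57, 11.28 and 16.36 in PVCre cortex and at 5.03, 4.62, 4.79 and 4.73 in PV-tdTomato cortex, at least 234-fold higher (adjusted p = 1.9e-06). Ccl3, a chemokine of activated microglia, was at 15.89, 13.76, 11.38 and 16.15 in PVCre cortex and at 5.51, 5.66, 6.31 and 5.50 in PV-tdTomato cortex (8.55 ± 0.84; adjusted p = 2.5e-06). Tnf was at 11.38, 9.87, 7.90 and 12.79 in PVCre cortex and at 5.26 to 5.43 in PV-tdTomato cortex, at least 17.2-fold higher (adjusted p = 0.00033). The order of the PVCre replicates in Il1a and Tnf, with 4 highest and 3 lowest, was the order seen in Csf1r. The chemokine Ccl2 differed by 3.34 ± 0.32 (adjusted p = 2e-06) and Nfkbiz, an inducible regulator of NF-kappaB, was at least 6.85-fold higher (adjusted p = 1.1e-05).

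Most of the other largest rises were immune genes too. Bcl2a1a, an anti-apoptotic gene of myeloid cells that belongs to a cluster of near-identical copies and is therefore uncertain, was at 15.55, 14.00, 10.67 and 16.26 in PVCre cortex and at 4.5 to 5.60 in PV-tdTomato cortex, at least 214-fold higher (adjusted p = 3.8e-06). Tlr7, a receptor for single-stranded RNA, was at least 37.7-fold higher, the complement receptor C3ar1 at least 13.6-fold, the inflammasome sensor Nlrp3 at least 10.3-fold and the costimulatory receptor Cd86 at least 11.7-fold (adjusted p = 1.8e-05, 7.2e-05, 3.2e-05 and 8.1e-05). Ly86, the prostaglandin synthase Hpgds and the selectin ligand Selplg were at least 16.6-fold, 8.02-fold and 12.2-fold higher (adjusted p = 0.0002, 0.00019 and 7.3e-06). Fam71a was at least 5.23-fold higher, and its PVCre arrays, at 8.12 to 9.42, lay closest together of the 15 (adjusted p = 2.1e-08).

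Markers of other non-neuronal cells gave smaller differences, with counts read against 19.2% of all genes higher and 34.4% lower. Of 10 perivascular macrophage genes 9 were higher, with a median of 0.88 and none by more than 1; Stab1, a scavenger receptor, was at 6.07 to 6.69 in PVCre cortex and at 5.33 to 5.50 in PV-tdTomato cortex, all near background. Of 14 endothelial genes 1 was higher and 1 lower, and Cldn5, a tight junction protein of the blood-brain barrier, was at 5.73 to 6.08 in PVCre cortex and at 5.35, 5.57, 7.20 and 7.84 in PV-tdTomato cortex and did not pass (adjusted p = 0.41). Of 9 pericyte genes 3 were higher and 1 lower, of 13 ependymal genes 4 were higher and 1 lower, and of 7 red blood cell and leukocyte genes 5 were higher; 5, 8 and 4 members of these lists were within background in both lines. Without single cortical arrays 1 to 3 ependymal genes were higher.

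Lysosome, complement and antigen presentation genes were higher in part, at 33.3% of the lysosome list and 43.8% of the other list, against 19.2% of all genes. In the lysosome list 7 of 21 were higher and 1 lower, and Cd68, a lysosomal protein of phagocytes, was at 12.33, 10.49, 10.25 and 11.56 in PVCre cortex and at 6.97, 7.53, 7.47 and 7.38 in PV-tdTomato cortex (3.82 ± 0.39; adjusted p = 3.4e-06). Npc2, which exports cholesterol from lysosomes, differed by 2.12 ± 0.36 (adjusted p = 0.00023). In the complement, antigen presentation and interferon list 7 of 16 were higher and 1, the interferon-induced Ifit2, was lower (-1.01 ± 0.15; adjusted p = 8.1e-05). Among the members that were higher, the myeloid transcription factor Irf8 and the complement receptor C5ar1 rose by at least 1.25-fold each (adjusted p = 1.4e-05 and 3.2e-06).

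Immediate early genes formed the other large rise. Of 26 tested 19 were higher in PVCre cortex and 1 was lower, with a median difference of 1.49 and 8 higher by more than 1. Their mean level was 9.82, 9.07, 9.13 and 9.59 on PVCre arrays and 7.65, 7.75, 7.96 and 8.25 on PV-tdTomato arrays, without overlap. Atf3, a stress-induced transcription factor, was at 11.32, 10.63, 9.87 and 11.16 in PVCre cortex and at 6.14, 6.07, 5.60 and 5.84 in PV-tdTomato cortex, at least 20.6-fold higher (adjusted p = 1.7e-07). Btg2, an antiproliferative early gene, was at 8.96, 8.59, 7.87 and 9.20 in PVCre cortex and at 4.83, 4.98, 5.32 and 5.69 in PV-tdTomato cortex, at least 4.85-fold higher (adjusted p = 8e-07). Zfp36, which destabilizes cytokine mRNAs, was at 10.09, 9.35, 9.31 and 10.46 in PVCre cortex and at 6.26, 6.12, 6.84 and 6.63 in PV-tdTomato cortex (3.34 ± 0.25; adjusted p = 3.8e-07). The PVCre replicates differed less in these genes than in the microglial ones, and PVCre replicate 3 was again the lowest in each. Egr3, a transcription factor of activity, differed by 1.62 ± 0.12 (adjusted p = 3.7e-07).

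The promoters of Il1a, a cytokine gene among the largest rises, and of Atf3 and Btg2, early genes that rose from background, are shown as the 250 bases before the RefSeq start (GRCm38.p6), 5′ to 3′ on the gene's strand, because members of these lists moved together. Capitals mark, in Il1a, an AP-1 motif (TGAGTCA or its reverse complement TGACTCA) and, in Atf3 and Btg2, the core of the cyclic AMP response element (TGACGT or its reverse complement ACGTCA, which overlap where both are present).
Il1a, chr2:129309973-129310222, minus strand: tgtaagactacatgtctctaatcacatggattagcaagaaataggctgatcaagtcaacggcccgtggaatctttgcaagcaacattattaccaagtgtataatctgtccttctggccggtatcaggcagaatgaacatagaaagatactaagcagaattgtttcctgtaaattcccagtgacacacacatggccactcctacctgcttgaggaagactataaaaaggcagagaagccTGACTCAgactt
Atf3, chr1:191183334-191183583, minus strand: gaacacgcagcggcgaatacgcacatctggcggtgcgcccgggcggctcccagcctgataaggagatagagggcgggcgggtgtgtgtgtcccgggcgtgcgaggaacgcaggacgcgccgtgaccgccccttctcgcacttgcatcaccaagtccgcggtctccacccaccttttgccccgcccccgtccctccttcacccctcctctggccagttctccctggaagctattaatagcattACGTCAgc
Btg2, chr1:134079156-134079405, minus strand: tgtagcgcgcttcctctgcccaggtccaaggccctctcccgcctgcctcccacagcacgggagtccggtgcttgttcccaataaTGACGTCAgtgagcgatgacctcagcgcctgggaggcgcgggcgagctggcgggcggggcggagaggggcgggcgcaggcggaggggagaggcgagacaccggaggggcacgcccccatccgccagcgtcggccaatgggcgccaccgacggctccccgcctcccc

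The motif begins 12 bases before the start in Il1a, 8 in Atf3 and 166 in Btg2. Of 22 tested immediate early genes with a promoter in the table, 9 held the response element core within these 250 bases, against 9.09% of the 12246 tested genes with a promoter. Among the 9, 6 were called higher, against 19 of all 26 tested early genes, so holders were not called more often. Of 15 tested cytokine genes with a promoter, only Il1a, the 1 shown, held the AP-1 motif, against 3.28% of the tested genes. A match is a description of these letters and not of a bound factor.

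**Figure D4:**
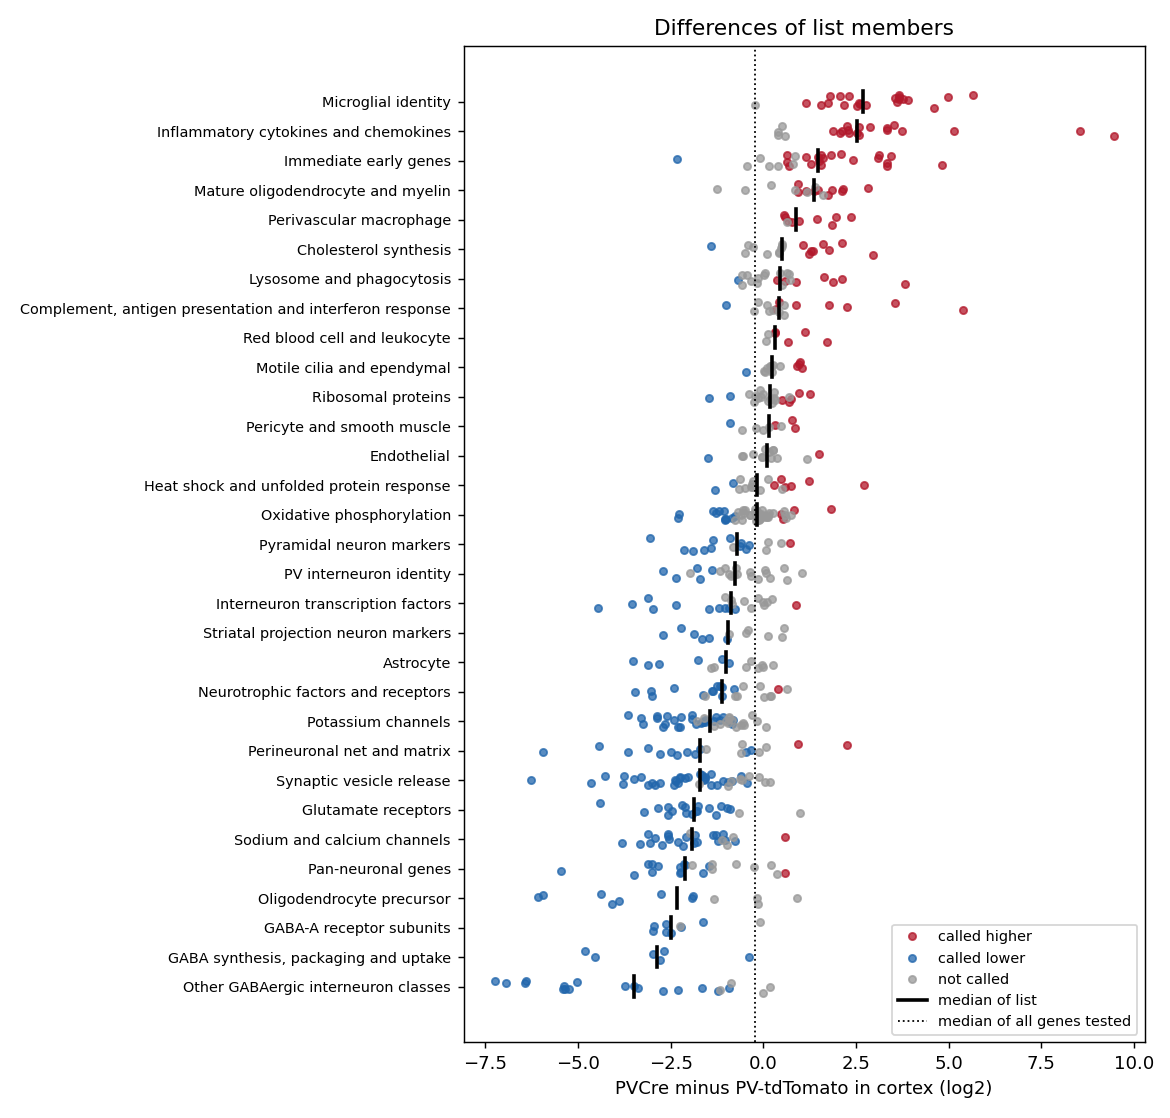
PVCre minus PV-tdTomato in cortex on the log2 scale for each tested member of 31 gene lists; red points were called higher, blue points lower and grey points not called, the thick bar is the median of the list and the dotted line the median of all genes tested, -0.22. The microglial, cytokine and immediate early medians of 2.69, 2.53 and 1.49 are the highest and the median of other GABAergic classes, -3.48, is the lowest.

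Stress, sterol and housekeeping lists were mixed, read against 19.2% of all genes higher and 34.4% lower. Of 18 heat shock and unfolded protein response genes 6 were higher and 2 lower; Ddit3, a transcription factor of the unfolded protein response, was at 13.70, 11.63, 12.62 and 12.89 in PVCre cortex and at 10.47, 10.31, 9.38 and 9.87 in PV-tdTomato cortex (2.71 ± 0.39; adjusted p = 6.6e-05), whereas the chaperone Hsph1 differed by -1.30 ± 0.20 (adjusted p = 0.00012). Of 18 cholesterol synthesis genes 8 were higher (44.4%) and 1 was lower, and 12 were higher after quantile normalization, against 26.0% of all genes. Msmo1, a sterol oxidase, was at 13.01, 12.73, 12.20 and 13.44 in PVCre cortex and at 9.41, 9.42, 10.70 and 10.06 in PV-tdTomato cortex (2.95 ± 0.31; adjusted p = 4.9e-06). Idi1, an isomerase earlier in the pathway, differed by 2.14 ± 0.32 (adjusted p = 8.2e-05) without overlap.

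Of 48 oxidative phosphorylation genes 4 were higher and 11 lower (8.3% and 22.9%, against 19.2% and 34.4% of all genes). After quantile normalization 9 were higher and 6 lower, against 26.0% and 23.9% of all genes. With the control separation as a covariate 23 were higher and none lower, against 10.4% and 16.1% of all genes. The direction of the list thus depended on the setting. After quantile normalization the balance of all genes turned too, so that turn is not particular to the list. Without PV-tdTomato replicate 1 there were 7 lower genes, and without PVCre replicate 1 there was 1 higher. Within it, Sdha, a subunit of complex II, differed by -2.31 ± 0.32 (adjusted p = 4.5e-05) and Uqcrb, a subunit of complex III, by 1.82 ± 0.34 (adjusted p = 0.00043). Of 21 ribosomal protein genes 5 were higher and 2 lower (23.8% and 9.5%, against 19.2% and 34.4% of all genes). After quantile normalization 13 were higher and 1 lower, against 26.0% and 23.9% of all genes. Such genes have many near-identical copies and are uncertain.

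Quality moved with these results. With the control separation of each array as a covariate, 10.4% of all genes were higher and 16.1% lower. Of the leading lists, 12 genes of other interneuron classes were then lower and 11 microglial, 11 immediate early and 7 cytokine genes were higher, while 1 pan-neuronal gene, 6 potassium channels, 6 release genes and 2 GABA genes were lower. Gad1 turned to 0.91 (adjusted p = 0.678) and Snap25 to 0.28 (adjusted p = 0.854). The control separation did not overlap between the lines, and its part and the line's cannot be told apart.

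All mice were labelled male, yet the arrays differed in sex-linked RNA. Xist, the RNA of the inactive X chromosome, was at 15.03, 6.56, 14.96 and 14.78 in PVCre cortex and at 5.75, 5.98, 16.01 and 5.90 in PV-tdTomato cortex. The Y-linked Kdm5d was at 6.17, 7.92, 5.75 and 7.36 in PVCre cortex and at 9.28, 9.51, 5.78 and 9.62 in PV-tdTomato cortex. PVCre replicates 1 and 3 and PV-tdTomato replicate 3 were thus high in Xist and low in Kdm5d, PVCre replicate 2 and the other PV-tdTomato arrays the reverse, and PVCre replicate 4 held both. None of the sex-linked RNAs was called between the lines (limma adjusted p = 0.22 for Xist), but the spread within each line was wide. The missing call does not show that the lines were matched for sex. In other fits 2 were lower without the 4 low-Pvalb arrays and 2 with the replicate block over all 16 arrays. Without PV-tdTomato cortex replicate 3, 1 was higher and 1 lower. With Xist and the Y-linked levels as covariates 3678 genes were higher and 6643 lower.

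The same 2 lines were compared in dorsal striatum, which shows where the cortical difference stands apart. There 10942 genes differed, and 8917 genes differed in both regions with the same sign, which is 81.2% of the cortical and 81.5% of the striatal calls. The line difference itself differed between the regions for 40 genes (0.195%), 30 of them more negative in cortex; without single arrays of either region the number was 21 to 69. The microglial median was 2.69 in cortex and 2.47 in striatum, and that of immediate early genes 1.49 in cortex and 1.51 in striatum. No member of either list was among the 40. With 0.195% of all genes called, that absence does not show that their differences were equal in the regions. The test took the arrays of both regions as independent. The median of other GABAergic classes was -3.48 in cortex and -0.83 in striatum, and 5 of its 21 members (Adarb2, Lamp5, Ndnf, Reln and Vip) were among the 40; Reln was named after its value was seen.

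The differences here are between measured levels, and where a group lay at background their exact size is not settled. PVCre cells did so in cortex for Vip, Adarb2, Nr2f2 and Tacr3, and lay within or next to background on most arrays for Cxcl14. Both lines lay at background in cortex for Trh and Mc3r. Vip had a measured line difference of -7.25 in cortex and -0.45 in striatum, where the means of both lines were below the highest antigenomic mean (5.18 in PVCre and 5.63 in PV-tdTomato), and the difference between regions was -6.80 ± 1.27 (SE; adjusted p = 0.049). That call was lost in 15 of 16 fits that left out 1 array, all but the one without PV-tdTomato cortex replicate 3 (adjusted p up to 0.133). Cxcl14 differed by -7.67 in cortex and by -1.88 in striatum (-5.79 ± 0.79; adjusted p = 0.0076), and Adarb2 by -6.94 and by -1.98 (-4.96 ± 0.78; adjusted p = 0.016). Necab1, a calcium-binding protein, averaged 8.11 in PVCre cortex and 13.56 in PV-tdTomato cortex, but 13.65 in PVCre striatum and 13.20 in PV-tdTomato striatum (-5.91 ± 1.07; adjusted p = 0.043). Nr2f2 gave -5.18 ± 0.88 (adjusted p = 0.029). In striatum Vip and Nr2f2 were low in both lines, Necab1 was high in both, and Cxcl14 and Adarb2 were lower in PVCre cells by less than in cortex.

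In the other direction the difference lay in striatum. Trh, the peptide thyrotropin-releasing hormone, was at background in both cortical groups, with means of 5.21 in PVCre and 5.2 in PV-tdTomato, and averaged 5.58 in PVCre striatum and 10.58 in PV-tdTomato striatum (5.01 ± 0.82; adjusted p = 0.022). The neurokinin receptor Tacr3 gave 4.05 ± 0.54 (adjusted p = 0.0064), the melanocortin receptor Mc3r 3.33 ± 0.56 (adjusted p = 0.026), the GDNF-family receptor Gfra2 2.99 ± 0.54 (adjusted p = 0.043) and the hyaluronidase Cemip2 2.33 ± 0.40 (adjusted p = 0.031). Each of these was lower in PVCre striatum than in PV-tdTomato striatum by more than in cortex. Of the 10 genes named here, Cxcl14, Adarb2 and Tacr3 kept the call in all 16 fits that left out 1 array; Trh lost it in 7, Mc3r in 9, Cemip2 in 10, Nr2f2 and Necab1 in 12 each and Gfra2 in 13.

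**Figure D5:**
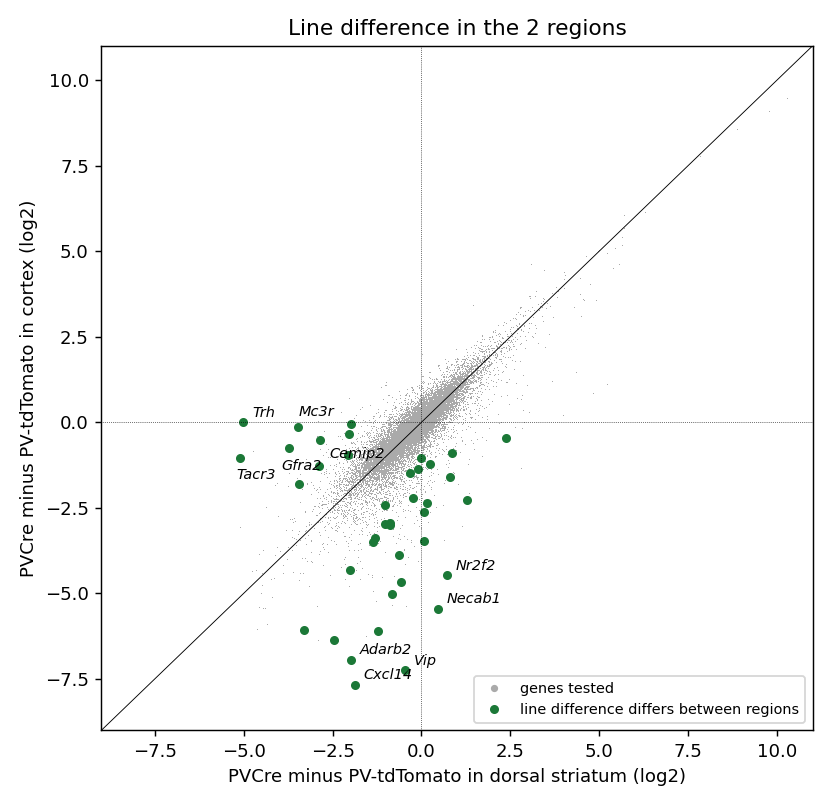
PVCre minus PV-tdTomato in cortex (vertical) against the same difference in dorsal striatum (horizontal), both on the log2 scale; grey points are the 20495 genes tested, green points the 40 genes whose line difference differed between the regions, with 10 named, and the solid line marks equal differences. Most genes lie along that line; Vip, Cxcl14, Adarb2, Necab1 and Nr2f2 lie below it and Trh, Tacr3, Mc3r, Gfra2 and Cemip2 above it.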

How the data were processed

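The authors deposited log2 levels; the submitters' processing notes name RMA and Affymetrix Expression Console, without a version or genome build. Of 65956 transcript clusters, 31216 had 1 gene, 1534 several and 33206 none listed; symbols of 827 were updated by Entrez number. The cluster with the highest mean stood for each of the 364 genes with several. The lowest 33.3% of genes (mean under 5.53) were left out. The test was that of limma 3.58.1 (R 4.3.3), fitted to all 16 arrays with 1 mean per group, with Benjamini-Hochberg adjustment over 20495 genes and a threshold of 0.05; errors are SE of differences and SD of levels. In simulated data for the cortical comparison (20495 genes), 60% of the genes changed by 1 and 94% of those changed by 2 were recovered, with 10 false calls. For the difference between regions these were 34% and 82%, with 5 false calls. Only 50 genes were changed at each size, and the noise was independent between genes. In the measured data 53.5% of genes were called and genes of a list deviated together by replicate, so these figures need not hold there. Arrays have no read depth and their number sets the precision; p-values measure the spread between pools. No 2 arrays were identical. Values reach 19.92, above what a 16-bit scanner gives, and no reason is stated in the labels.

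Named were, among genes without overlap, 15 with the largest rise and 15 with the largest fall whose higher mean was above the antigenomic maximum, the 4 smallest p of each list, the 5 largest differences between regions in each direction, and a fixed set of markers; predicted models and small RNAs were left out. Members, lists and the rule were chosen with earlier results of these data known. Promoters came from a RefSeq table. Alternatives were other filters, quantile normalization, median centring, other priors and weights, fewer arrays, the replicate block, a minimum difference and covariates; those on low-Pvalb and low-Gad1 arrays, sex-linked RNA and control separation were chosen after the data were seen. Plots used Python 3.11.15 and matplotlib 3.10.9.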

Additional observations from a re-analysis of the deposited data

Results flagged for a closer look

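Among 360 groups of 4 cortical arrays, 13 values stood apart from their group, where chance gives about 1 in 20. In PVCre cortex these were Xist in replicate 2 (6.56, low), Hapln1, Hsph1 and Uqcrc1 in replicate 3 (8.15, 12.77 and 12.12, high), Cd209f and Gpr149 in replicate 2 (6.50 and 4.92, high), Grid1 in replicate 4 (7.0, high) and the mean level of the sex-linked RNAs in replicate 4 (9.86, high). In PV-tdTomato cortex all 5 were in replicate 3: Xist (16.01, high), Kdm5d and Uty (5.78 and 6.15, low), Cd86 and Kcnn3 (5.17 and 7.54, high).

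The line difference in cortex differed from that in striatum, by the test of the difference itself, for Vip (-6.80), Necab1 (-5.91), Cxcl14 (-5.79), Nr2f2 (-5.18), Adarb2 (-4.96), Trh (5.01), Tacr3 (4.05), Mc3r (3.33), Gfra2 (2.99) and Cemip2 (2.33), on the log2 scale.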

How the results depend on the processing

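The 3934 genes higher and 7041 lower in PVCre cortex became 7407 higher without a filter, 7490 higher over every cluster and 2494 higher among genes above background, where fewer or more genes were tested; 272 higher and 693 lower with a minimum difference of 1; and 2129 higher and 3296 lower with control separation as a covariate. Leaving out 1 array gave 3409 to 3896 higher and 6296 to 7212 lower. The 40 differences between regions became 131 with array weights, 0 with a minimum difference of 1 in limma, 141 without the 4 low-Pvalb arrays, 6 without PVCre replicates 2 and 4, 19 with sex-linked covariates, and 21 to 69 when 1 array was left out, 69 without PV-tdTomato cortex replicate 3; the cause was not tested.

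Pvalb ranged from -0.97 to 0.99 when 1 array was left out and was -0.13 without the 4 low-Pvalb arrays, where Aqp4 was 0.06 and Cldn5 0.45. Mbp was 0.01 after quantile normalization. Lhx6 was 0.01 with array weights, 0.22 without PVCre replicates 2 and 4 and 1.59 (adjusted p = 0.0457) with control separation, where Erbb4 was 0.47, Gad1 0.91, Nxph1 0.72 and Snap25 0.28. Eif2s3y was 0.39 and Uty 0.07 with sex-linked covariates. Of 138 named genes called in cortex, 133 kept call and sign after quantile normalization, 79 with a minimum difference of 1 and 87 with control separation.

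Replicate numbers did not pair the cortical arrays of the 2 lines: deviations of same-numbered arrays correlated at 0.17, -0.37, -0.64 and 0.50. Pairing of cortex with striatum within a line was not tested. In PV-tdTomato replicates 1 to 4 the precursor list averaged 9.09, 8.95, 12.33 and 11.72 in striatum. In cortex it averaged 9.57, 9.75, 11.92 and 12.27. The PVCre arrays, at 7.62 to 7.84 in striatum and 7.84 to 8.54 in cortex, showed no such split. With the replicate block over all 16 arrays 3889 genes were higher, 6986 lower and 29 differed between regions. Over the 8 cortical arrays with the replicate block 2963 were higher and 5505 lower, against 3618 and 6576 without it. The block and the correlations used the replicate numbers of the titles. For PVCre cortex titles 1 to 4 the sample descriptions gave 3, 4, 6 and 7, and in the other groups both numbers were the same. A block by the description numbers was not fitted. Signal close to background limits 905 called genes that were within it in both lines.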
